A study of Mus musculus with 14 samples.

Results

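Neurofilament and axon growth genes were followed in the superior colliculus, the layered roof of the midbrain that takes input from the eye, of ICR/CD-1 mouse pups at postnatal day 6. The set was chosen by gene name, with earlier results of these data known, and held 10 of the 55359 gene IDs that were counted. Counts of its calls beside those of all genes are therefore descriptions. The filament genes were Nefl, Nefm, Nefh, Ina and Prph (5 genes), and the axon growth genes were Gap43, Stmn2, Dcx, Dpysl3 and Mapt (5 genes). Each symbol matched 1 gene ID, and all 10 genes were among the 20330 that passed the filter on low counts.

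The 14 libraries came from microdissected tissue, 3 brains pooled in each, and fell into 4 groups. The superficial layers gave 4 libraries from pups injected with 50 mM carbenoxolone (cbx), which closes gap junctions, and 3 from pups injected with saline, and the deep layers of the colliculus gave 4 cbx and 3 saline libraries. Both injections went into the vitreous of the eye between postnatal days 0 and 1, so all 4 groups share strain, age and an eye injection, and no uninjected group was analysed here. The study's title speaks of how visual and somatosensory circuits are kept apart, and the injections were given to stop retinal waves, the spontaneous activity of the retina before eye opening. Since each library is a pool, a p-value speaks of the spread between pools and not between pups.

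Neurofilaments are the intermediate filaments of neurons. The light chain (Nefl), the medium chain (Nefm) and the heavy chain (Nefh) form the triplet, which assembles with alpha-internexin (Ina) in central neurons and with peripherin (Prph) mostly in neurons whose axons leave the brain. In the rodent brain alpha-internexin appears early, in young neurons, and the triplet later, the heavy chain last, as axons settle and thicken. The axon growth genes were grouped by name and need not be confined to growing axons. They are Gap43, a membrane protein of growth cones, Stmn2, which destabilises microtubules, and Dcx, which binds microtubules of migrating and immature neurons. The others are Dpysl3, a collapsin response mediator protein, and Mapt, which encodes tau.

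Promoter sequences from RefSeq were at hand for only 3 of the 10 genes, and these are shown for that reason alone. The 120 bases before each start site are given 5′ to 3′ on the gene's own strand, on GRCm38.p6, in lower case, with capitals for the TATA box (TATAAA) and, on either strand, for the GC box (GGGCGG). Prph lies at chr15:99055054-99055173 on the plus strand, Ina at chr19:47014561-47014680 on the plus strand and Dcx at chrX:143933220-143933339 on the minus strand.
Prph: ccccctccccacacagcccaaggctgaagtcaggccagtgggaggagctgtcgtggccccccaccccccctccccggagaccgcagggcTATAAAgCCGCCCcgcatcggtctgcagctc
Ina: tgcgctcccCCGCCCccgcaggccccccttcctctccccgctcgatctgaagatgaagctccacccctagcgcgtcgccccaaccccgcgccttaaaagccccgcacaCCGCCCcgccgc
Dcx: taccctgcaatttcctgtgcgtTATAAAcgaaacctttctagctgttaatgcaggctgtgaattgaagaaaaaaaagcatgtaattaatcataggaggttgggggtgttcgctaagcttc
In Prph the TATA box began 31 bases before the start site, with a GC box 24 bases before it. Ina had GC boxes 111 and 12 bases before its start and no TATAAA. Dcx had TATAAA 98 bases before its start, and a CCAAT box, the other motif searched, 196 bases before it, outside the stretch shown. RefSeq also has a second Dcx start site, from which the same TATAAA lies 193 bases away, so these positions hold for the start site used here. Both strands of 300-base windows around start sites were searched. Of 32851 such windows, 13.6% held TATAAA, 35.7% held GGGCGG and 37.4% held CCAAT, so these matches describe letters and not binding.

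Total counts were 32004952 to 48776827 per library, and the 10 genes took 0.557% to 0.705% of them. All 10 markers of dorsal midbrain neurons that were looked up had counts in every group, with summed levels of 804 to 933 CPM (read counts scaled to library size) in cbx superficial libraries, 821 to 882 in saline superficial, 980.2 to 1044 in cbx deep and 981 to 1056 in saline deep ones. The superficial libraries also held meninges. The 10 fibroblast markers summed to 872 to 1672 CPM in cbx superficial and 665 to 995 in saline superficial libraries, but to 51.2 to 68.8 in cbx deep and 80.4 to 95.01 in saline deep ones. Cbx superficial replicate 1 stood apart, where the longest quintile of genes less the shortest quintile had a median of -0.382 on the log2 scale against the mean of its layer, while the other superficial libraries were between -0.0853 and 0.217. Saline pool 1 had at most 68 counts of Xist, the RNA of the inactive X chromosome, and cbx pool 4 had 0 counts of the Y-linked Ddx3y, so these 2 pools were each of one sex.

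The 10 genes spanned a wide range of levels, with Gap43, Dpysl3, Mapt and Stmn2 above every filament gene, and Nefh and Prph last, in every group. Levels between genes are given as CPM per kilobase of exon. In saline superficial libraries Gap43 was first with 345, followed by Dpysl3 with 229, Mapt with 209 and Stmn2 with 194 CPM per kilobase. Dpysl3, Mapt and Stmn2 were close, and the ranges of neighbours in that order overlapped. Ina, at 82.0, was by far the most abundant filament transcript there, ahead of Dcx at 45.0, Nefl at 31.0, Nefm at 7.16, Nefh at 3.66 and Prph at 0.481 CPM per kilobase. These levels did not overlap between neighbours.

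Cbx superficial libraries had the same order, with Gap43 at 371 and Prph at 0.366 CPM per kilobase. In the deep layers Nefl, at 77.5 CPM per kilobase in cbx and 72.7 in saline libraries, came close to Ina, at 86.7 in cbx and 84.7 in saline libraries. The ranges of Ina and Nefl overlapped in cbx deep libraries and not in saline deep ones. Dcx, at 22.6 in cbx deep and 25.8 in saline deep libraries, stood below Nefm, at 34.9 in cbx deep and 28.6 in saline deep libraries, with overlapping ranges in saline libraries only. The order within the growth genes depends on which transcript sets the length: with the principal transcript of each gene, a choice made after seeing the data, Mapt came first in every group and Dcx stood above Ina. The order Ina, Nefl, Nefm, Nefh, Prph held in all 4 groups with both lengths.

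Nefl and Nefm share 1108 bases of exon on opposite strands in the GENCODE M21 annotation, and Ina shares 456 bases with Nt5c2. No source used here says whether the counting used strand, so to which gene the reads of the shared stretches went is uncertain.

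**Figure D1:**
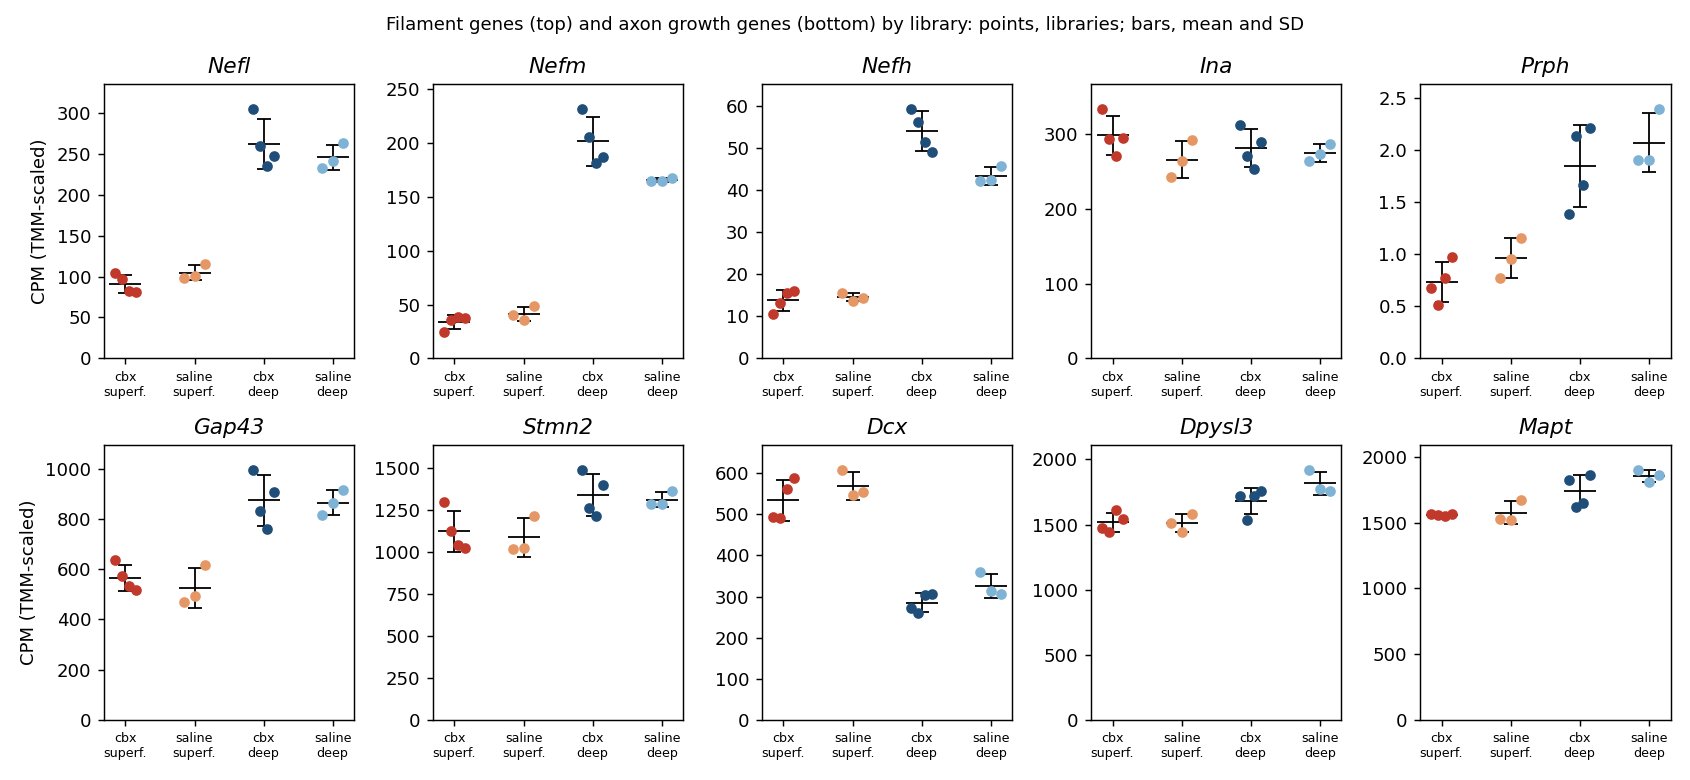
CPM (TMM-scaled, linear axes from 0) of each gene in each library, with filament genes above and axon growth genes below; points are libraries, bars mean and SD, n = 4 for each cbx group and 3 for each saline group. Nefl, Nefm, Nefh and Prph were lower in superficial than in deep libraries, Dcx was higher, and Ina was at a similar level in all 4 groups.

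The first question was how the superficial layers, which take retinal input, differ from the deep ones. The triplet was much lower in the superficial layers under both treatments. Nefl, the chain that Nefm and Nefh need for assembly, had 104, 96.5, 82.8 and 81.7 CPM in cbx superficial libraries, against 305, 260.0, 235 and 248 CPM in cbx deep libraries. It had 98.5, 101 and 115 CPM in saline superficial libraries, against 233, 242 and 263 CPM in saline deep libraries. Every superficial library was below every deep one. In edgeR's quasi-likelihood test Nefl fell by 1.52 on the log2 scale in cbx (SE 0.0898, adjusted p = 1.53e-10) and fell by 1.23 in saline (SE 0.103, adjusted p = 4.53e-08). In such bulk tissue, fewer cells of a type and less RNA per cell cannot be told apart.

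Nefm, the medium chain, showed the largest layer difference of the 10 genes in both treatments. It had 24.4, 35.3, 38.2 and 37.8 CPM in cbx superficial libraries, against 232, 205, 182 and 187 CPM in cbx deep libraries. Saline superficial libraries had 40.4, 35.3 and 48.4 CPM of it, against 165, 164 and 167 CPM in saline deep libraries. The groups were far apart, and the superficial level was 0.169 of the deep one in cbx and 0.250 of it in saline. Nefm fell by 2.57 on the log2 scale in cbx (SE 0.134, edgeR adjusted p = 1.47e-09) and fell by 2.00 in saline (SE 0.152, edgeR adjusted p = 2.01e-07). Without cbx superficial replicate 1 the cbx difference was -2.44.

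Nefh, the heavy chain, whose phosphorylated tail accompanies growth in axon caliber, followed the same pattern at a lower level. It had 10.5, 13.2, 15.6 and 15.9 CPM in cbx superficial libraries, against 59.4, 56.3, 51.4 and 49.0 CPM in cbx deep libraries. In saline superficial libraries it had 15.6, 13.8 and 14.4 CPM, against 42.1, 42.4 and 45.8 CPM in saline deep libraries. No superficial library reached any deep one. Nefh fell by 1.97 in cbx (SE 0.106, edgeR adjusted p = 4.48e-11) and fell by 1.57 in saline (SE 0.122, edgeR adjusted p = 1.46e-08) on the log2 scale.

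Prph had few reads, with 18 to 38 counts in cbx superficial, 27 to 44 in saline superficial, 57 to 78 in cbx deep and 60 to 87 in saline deep libraries. Its level was 0.671, 0.512, 0.770 and 0.971 CPM in cbx superficial libraries, against 1.38, 2.13, 1.66 and 2.21 CPM in cbx deep libraries. It was 0.771, 0.955 and 1.16 CPM in saline superficial libraries, against 1.91, 1.90 and 2.40 CPM in saline deep libraries. The layers did not overlap. Prph fell by 1.32 in cbx (SE 0.253, edgeR adjusted p = 0.000415) and fell by 1.10 in saline (SE 0.285, edgeR adjusted p = 0.00892) on the log2 scale. The saline call was lost without saline superficial replicate 1 (edgeR adjusted p = 0.0512), and its adjusted p ran from 0.00134 to 0.0902 over all alternatives.

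Ina stood apart from the other filament genes. It had 334, 294, 271 and 294 CPM in cbx superficial libraries, against 311, 270.1, 253 and 289 CPM in cbx deep libraries. Saline superficial libraries had 242, 263 and 291 CPM, against 263, 274 and 287 CPM in saline deep libraries. The layers overlapped in both treatments. The fitted difference was 0.09 in cbx (95% interval -0.07 to 0.25, edgeR adjusted p = 0.428) and -0.05 in saline (95% interval -0.23 to 0.14, edgeR adjusted p = 0.790), intervals that leave out differences of the size seen for the triplet.

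Among the growth genes, Gap43, a protein kinase C substrate of growth cones, was lower in the superficial layers. It had 637, 572, 535 and 518 CPM in cbx superficial libraries, against 995, 832, 761 and 908 CPM in cbx deep libraries. It had 468, 495 and 615 CPM in saline superficial libraries, against 816, 864 and 915 CPM in saline deep libraries. The layers did not overlap in either treatment. Gap43 fell by 0.63 in cbx (SE 0.0936, edgeR adjusted p = 3.01e-05) and fell by 0.72 in saline (SE 0.108, edgeR adjusted p = 6.95e-05) on the log2 scale.

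Dcx was the only gene of the 10 that was called higher in the superficial layers. It had 492, 492, 562 and 589.5 CPM in cbx superficial libraries, against 273, 260.3, 303 and 305 CPM in cbx deep libraries. It had 608, 547 and 554 CPM in saline superficial libraries, against 360.0, 314 and 306 CPM in saline deep libraries. Each superficial library lay above each deep one. Dcx rose by 0.90 in cbx (SE 0.0778, edgeR adjusted p = 2.92e-08) and by 0.80 in saline (SE 0.0897, edgeR adjusted p = 1.94e-06) on the log2 scale.

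Stmn2, Dpysl3 and Mapt differed little between the layers. Stmn2 ranged from 1022 to 1294 CPM in cbx superficial and from 1214 to 1486 CPM in cbx deep libraries. It ranged from 1016 to 1215 CPM in saline superficial and from 1281 to 1360.3 CPM in saline deep libraries. The cbx ranges overlapped and the saline ranges did not. Stmn2 fell by 0.26 in cbx (SE 0.0844, edgeR adjusted p = 0.0243). The saline difference of -0.27 (SE 0.0975) was not called (edgeR adjusted p = 0.0607), but it was with the replicate number as a block (edgeR adjusted p = 0.00547). Over all alternatives its adjusted p ran from 0.00547 to 0.306.

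Dpysl3 ranged from 1443 to 1613 CPM in cbx superficial and from 1534 to 1758 CPM in cbx deep libraries. It ranged from 1446 to 1584 CPM in saline superficial and from 1757 to 1919 CPM in saline deep libraries. It fell by 0.26 in saline (SE 0.0739, edgeR adjusted p = 0.0159), while the cbx difference of -0.15 (SE 0.0640) was not called (edgeR adjusted p = 0.0823). With the replicate number as a block the cbx difference was called (edgeR adjusted p = 0.0444), and over all alternatives its adjusted p ran from 0.0178 to 0.256.

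Mapt, whose product binds and stabilises axonal microtubules, ranged from 1552 to 1569 CPM in cbx superficial and from 1619 to 1862 CPM in cbx deep libraries. It ranged from 1522 to 1676 CPM in saline superficial and from 1807 to 1901 CPM in saline deep libraries. Neither pair of ranges overlapped. Mapt fell by 0.24 in saline (SE 0.0713, edgeR adjusted p = 0.0242), and its cbx difference of -0.15 (SE 0.0617) was not called (edgeR adjusted p = 0.0631). With the block it was called (edgeR adjusted p = 0.0429), and over all alternatives its adjusted p ran from 0.00801 to 0.286.

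These differences stayed negative in every alternative tried, but some of the calls were lost when 1 library was left out. The Stmn2 call in cbx was lost without any one of cbx superficial replicates 2, 3 and 4 or cbx deep replicates 1 and 4 (edgeR adjusted p of 0.0510 to 0.0844). The Dpysl3 call in saline was lost without saline superficial replicate 1 or 2 or saline deep replicate 1 (edgeR adjusted p of 0.0508 to 0.0956). The Mapt call in saline was lost without saline superficial replicate 1 or 2 or any one saline deep library (edgeR adjusted p of 0.0538 to 0.120). The triplet, Gap43 and Dcx kept their layer calls in both treatments under every alternative tried.

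In all, 7 of the 10 genes were called between the layers in cbx, 1 higher (Dcx) and 6 lower, where 32.2% of the 20330 tested genes were called, 18.1% higher and 14.1% lower in the superficial layers. In saline 8 of 10 were called, 1 higher and 7 lower, against 18.4% of all genes, 9.67% higher and 8.73% lower. The median difference of the 10 genes was -0.44 in cbx and -0.49 in saline, against 0.02 in cbx and 0.04 in saline over all genes tested. The filament genes had medians of -1.52 in cbx and -1.23 in saline, and the growth genes of -0.15 in cbx and -0.26 in saline. All these values come from a fit that did not pair the layers of a pool. With the replicate number as a block, which pairs them, Stmn2 was also called in saline, and Dpysl3 and Mapt in cbx. With that block 37.4% of all tested genes were called in cbx and 22.9% in saline.

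**Figure D2:**
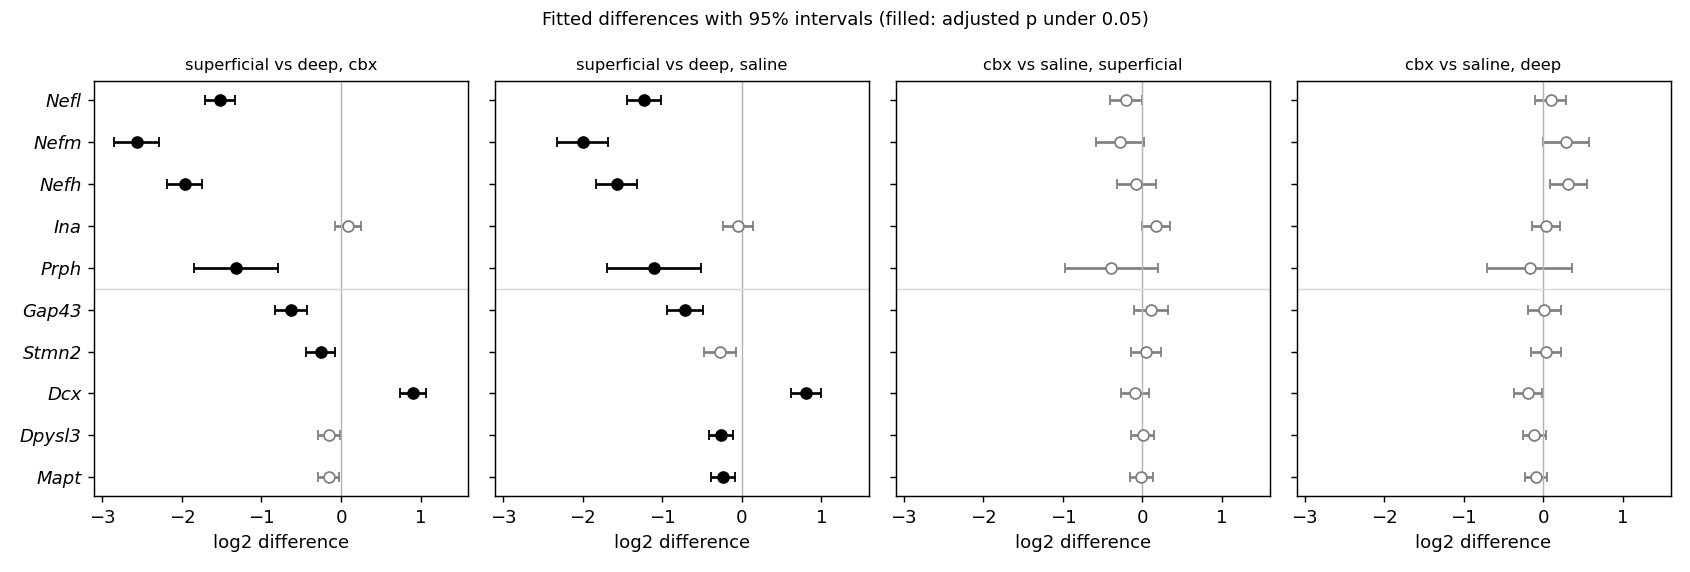
Fitted log2 differences with 95% intervals for the 10 genes in 4 comparisons, 2 between layers and 2 between treatments; filled points have an edgeR adjusted p under 0.05, n = 4 cbx and 3 saline libraries in each layer. The filled points are the 7 layer calls in cbx and the 8 in saline, and both cbx panels hold open points only.

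The same libraries were also compared pool by pool, which is another view of these differences and not a further test. Where the layers did not overlap within a treatment, the direction in each pool was already fixed. How many of all genes kept one direction in every pool was not counted. The superficial library of each of the 7 numbered pools was set against its own deep library on log2(CPM + 1). Nefl, Nefm, Nefh, Prph, Gap43, Stmn2, Dpysl3 and Mapt were lower in the superficial library in 7 of 7 pools, and Dcx was higher in 7 of 7. Ina was higher in 5 pools and lower in 2. Nefm had the widest spread between pools, from -3.20 in cbx pool 1 to -1.77 in saline pool 3. For Nefl the cbx pools, at -1.55, -1.42, -1.50 and -1.59, were all below the saline pools, at -1.23, -1.25 and -1.19. Nefm also had every cbx pool below every saline pool, Ina had every cbx pool above, and the other genes overlapped. No member was called in the interaction in the main fit, and how many of all genes separate by treatment in this way was not counted.

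**Figure D3:**
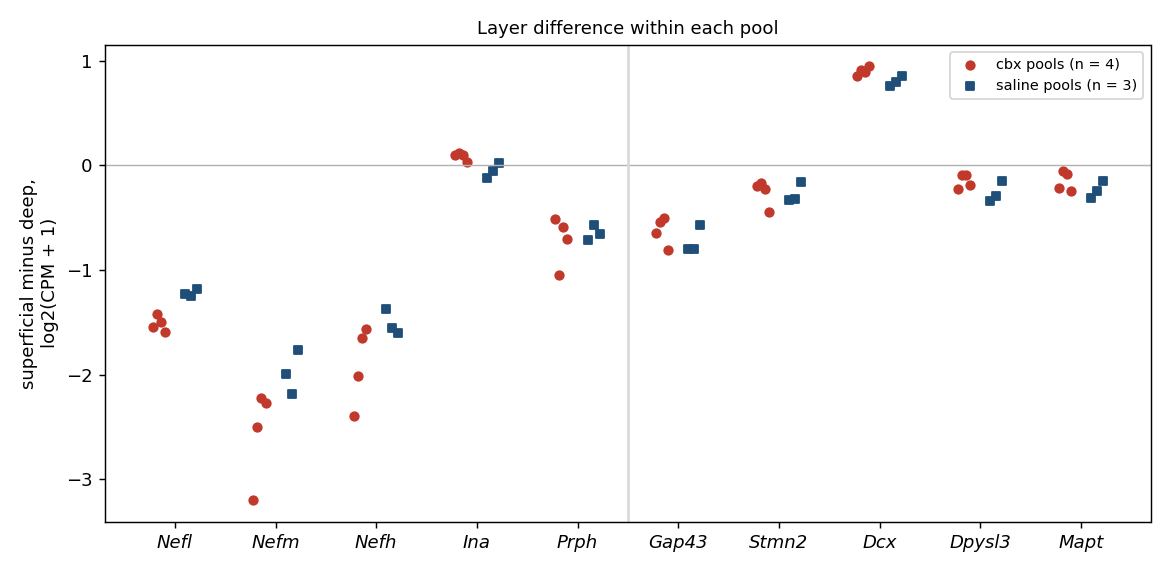
Difference between the superficial and the deep library of the same number, on log2(CPM + 1), for each gene; circles are the 4 cbx pools and squares the 3 saline pools. The triplet and Prph lie below 0 in every pool, Dcx lies above 0, and Ina lies near 0.

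The make-up of the filament genes differed between layers as well. Summed per kilobase, the triplet had 36.3 ± 1.68 in cbx superficial, 41.8 ± 3.59 in saline superficial, 126 ± 13.9 in cbx deep and 112 ± 5.37 CPM per kilobase in saline deep libraries (SD). Ina was thus 2.53 ± 0.177 times the triplet in cbx superficial and 1.96 ± 0.0949 times it in saline superficial libraries, but only 0.690 ± 0.0451 of it in cbx deep and 0.755 ± 0.00798 of it in saline deep libraries. The superficial layers were on the side of Ina and the deep layers on the side of the triplet.

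Nefl made up 74.1% of the triplet in cbx superficial, 74.2% in saline superficial, 61.5% in cbx deep and 64.8% in saline deep libraries. Nefm made up 16.3% in cbx superficial, 17.0% in saline superficial, 27.7% in cbx deep and 25.5% in saline deep libraries. The layers did not overlap in either share. Nefh, with 9.59% in cbx superficial, 8.78% in saline superficial, 10.8% in cbx deep and 9.69% in saline deep libraries, overlapped between the layers. In cbx superficial replicate 1, the library in which long genes were low, Nefl had 81.8% and Nefm 11.2%, outside the range of the other superficial libraries. These shares depend on the length used. The exons of Nefm span 5782 bases, against 3334 in its principal transcript, while Nefl, Nefh and Ina have the same length in both. With the principal transcript the share of Nefm is higher, and the share of Nefl and the ratio of Ina to the triplet are lower.

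The balance of both gene groups was measured in each library as the mean log2(CPM + 1) of the 5 filament genes minus that of the 5 growth genes. It was -5.00 ± 0.102 in cbx superficial, -4.87 ± 0.0203 in saline superficial, -3.74 ± 0.104 in cbx deep and -3.93 ± 0.0809 in saline deep libraries (SD, n = 4 for cbx and 3 for saline). Filament genes were lower relative to growth genes in the superficial layers, with differences of -1.26 in cbx and -0.94 in saline and no overlap of libraries. With the summed CPM of each group of genes in place of the mean logs the differences were -0.71 in cbx and -0.55 in saline. The filament mean carried this difference, at 4.90 against 6.22 in cbx and 5.02 against 6.10 in saline (superficial against deep). The growth mean was 9.90 in cbx superficial and 9.96 in cbx deep libraries, which overlapped, and 9.89 in saline superficial and 10.03 in saline deep libraries, which did not.

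Between the treatments the balance moved in opposite directions in the layers. Cbx superficial libraries, at -5.14, -4.99, -4.97 and -4.90, were all below saline superficial libraries, at -4.89, -4.87 and -4.85. Cbx deep libraries, at -3.72, -3.60, -3.80 and -3.83, were all above saline deep libraries, at -4.01, -3.92 and -3.85. The gaps were small, and the means differed by -0.13 in the superficial and 0.19 in the deep layers. Without cbx superficial replicate 1 the superficial difference was -0.08. It came out at 0.03 when the summed CPM of each group of genes was used. The balance is a description and was not tested.

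**Figure D4:**
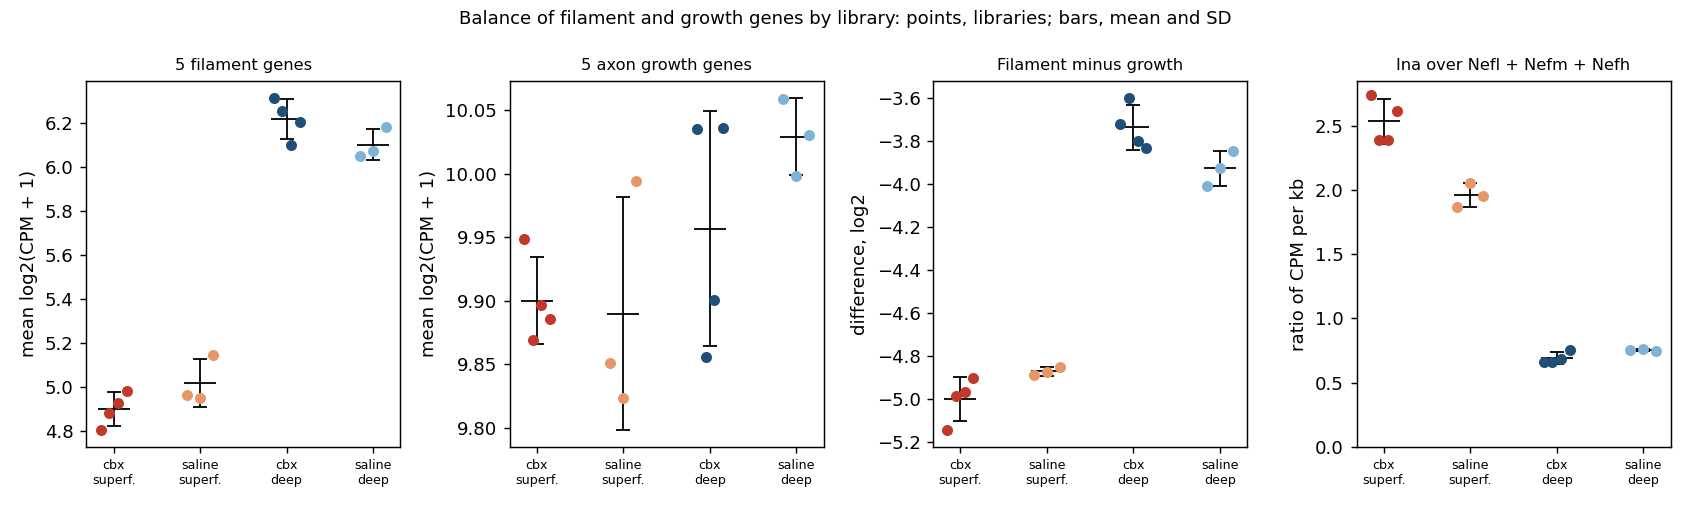
Mean log2(CPM + 1) of the 5 filament and the 5 axon growth genes, their difference, and Ina over the summed triplet (ratio of CPM per kilobase), in each library; points are libraries, bars mean and SD, n = 4 cbx and 3 saline in each layer, and only the axis of the ratio starts at 0. The layers separate in the filament mean, in the balance and in the Ina ratio, with cbx below saline in the superficial balance and above it in the deep one.

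The second question was what cbx in the eye did to these genes in the colliculus. No member was called in the superficial layers (0 of 10 in edgeR, DESeq2 and limma-voom), where 4.33% of all tested genes were called, 2.68% higher and 1.65% lower in cbx. Only Nefl had an unadjusted p under 0.05 (1 of 10), as did 4179 of all 20330 genes, a share above that of the members. Its mean was 91.2 ± 10.8 CPM in cbx superficial and 105 ± 8.80 CPM in saline superficial libraries (SD), a difference of -0.20 (95% interval -0.40 to -0.00357, edgeR adjusted p = 0.235). The triplet as a sum did not overlap, at 34.7 to 38.0 CPM per kilobase in cbx superficial and 39.5 to 46.0 in saline superficial libraries.

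Nefm averaged 33.9 ± 6.50 CPM in cbx superficial and 41.4 ± 6.58 CPM in saline superficial libraries, a difference of -0.28 (edgeR adjusted p = 0.268). The low value of cbx superficial replicate 1, 24.4 CPM, was the lowest of any library, and without it the difference was -0.16 (edgeR adjusted p = 0.447). Nefm was called without the low-count filter (-0.28, edgeR adjusted p = 0.0353), and its adjusted p ran up to 0.599 over all alternatives. Ina went the other way, with 298 ± 26.1 CPM in cbx superficial and 266 ± 24.6 CPM in saline superficial libraries, a difference of 0.17 (edgeR adjusted p = 0.265). Both sets of libraries overlapped, but the ratio of Ina to the triplet did not, at 2.39 to 2.74 in cbx superficial and 1.87 to 2.06 in saline superficial libraries. The ratio of Nefl to Gap43 did not overlap either, at 0.0697 to 0.0760 in cbx superficial and 0.0842 to 0.0949 in saline superficial libraries. The ratio of Nefh to Dcx overlapped, at 0.0673 to 0.0882 in cbx superficial and 0.0797 to 0.0825 in saline superficial libraries. Each share of the triplet overlapped too. How many of all genes separate between so few libraries was not counted.

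The other members of the superficial comparison had differences between -0.39 (Prph) and 0.11 (Gap43), all with overlapping libraries. Their 95% intervals lay within 0.32 of 0 on the log2 scale for Nefh and for each of the 5 growth genes, and reached -0.98 for Prph. Markers of other cells moved with this comparison: 5 of 10 meningeal and 7 of 9 microglial markers were called higher in cbx and none lower. The microglial markers summed to 304 to 326 CPM in cbx superficial and 225 to 252 CPM in saline superficial libraries. The part of all these cells in the filament values was not tested.

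In the deep layers cbx also gave no call among the 10 genes (0 in edgeR, DESeq2 and limma-voom), where 1.83% of all genes were called, 1.06% higher and 0.777% lower in cbx. Nefh and Dcx (2 of 10) had an unadjusted p under 0.05, a share near that of all genes (3118 of 20330). Nefh averaged 54.1 ± 4.70 CPM in cbx deep and 43.4 ± 2.08 CPM in saline deep libraries (SD), with every cbx library above every saline one. The difference was 0.32 (95% interval 0.09 to 0.54, edgeR adjusted p = 0.151). It was called without cbx superficial replicate 1, whose spread enters the common fit (edgeR adjusted p = 0.0334), and ran from 0.0265 to 0.392 over all alternatives.

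Nefm averaged 202 ± 22.7 CPM in cbx deep and 165 ± 1.62 CPM in saline deep libraries, again without overlap, a difference of 0.28 (95% interval -0.01 to 0.57, edgeR adjusted p = 0.337). When only the deep libraries were fitted, Nefh (edgeR adjusted p = 0.0265) and Nefm (edgeR adjusted p = 0.0423) were called higher in cbx. The adjusted p of Nefm ran from 0.0423 to 0.571 over all alternatives. Dcx moved against them, at 285 ± 22.3 CPM in cbx deep and 327 ± 29.2 CPM in saline deep libraries, with every cbx library below every saline one. Its difference was -0.19 (95% interval -0.37 to -0.02, edgeR adjusted p = 0.263). Nefm and Nefh thus separated upward and Dcx downward in the deep layers, though none was called in the main fit. The share of all genes that separate in this way was not counted, so these separations show nothing particular to these genes.

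Within the deep triplet, Nefm and Nefh had higher shares in cbx and Nefl a lower one. Nefl made up 60.8% to 62.2% of the triplet in cbx deep and 63.8% to 65.8% in saline deep libraries, and no libraries overlapped. Of the remaining genes, Nefl differed by 0.09, Ina by 0.03, Prph by -0.17, Gap43 by 0.02, Stmn2 by 0.03, Dpysl3 by -0.11 and Mapt by -0.09 on the log2 scale in the deep layers, with overlapping libraries. Meningeal markers summed to 51.2 to 68.8 CPM in cbx deep and 80.4 to 95.01 CPM in saline deep libraries, and none of the 10 was called. Astrocyte markers summed to 1932 to 2226 CPM in cbx deep and 2242 to 2742 CPM in saline deep libraries, and 1 of 9, Sox9, was called lower in cbx (-0.42, edgeR adjusted p = 0.0160). Their part in the values of the 10 genes was not tested.

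Whether the layer difference depended on the treatment was tested as the interaction. No member was called (0 of 10 in edgeR, DESeq2 and limma-voom). Over all 20330 genes 0% were called in edgeR, where 1699 had an unadjusted p under 0.05, 0 genes were called in limma-voom and 60 in DESeq2. Nefl, Nefm and Nefh were the 3 members with an unadjusted p under 0.05, all with a larger layer gap in cbx. The interaction was -0.57 for Nefm (SE 0.195, edgeR adjusted p = 0.447), -0.39 for Nefh (SE 0.158, edgeR adjusted p = 0.537) and -0.30 for Nefl (SE 0.134, edgeR adjusted p = 0.583). The only call among the alternatives was Nefm without the low-count filter (edgeR adjusted p = 0.00149). Its adjusted p ran from 0.220 to 0.673 over the other alternatives that kept all groups complete or left out the pools of one sex, and reached 0.789 with single libraries left out. The 5 growth genes had interactions between 0.01 and 0.11. The main fit did not pair the layers of a pool. With the replicate number as a block, which pairs them, 61 of all genes were called in the interaction and no member.

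Other genes of the axonal skeleton were counted in lists that do not hold the 10 genes. These lists too were chosen with earlier results of these data known. Their counts stand against 14.1% of all genes called lower and 18.1% called higher in the superficial layers in cbx, and 8.73% lower and 9.67% higher in saline. In the microtubule list 15 of 25 genes were called lower in the superficial layers in cbx and 13 of 25 in saline, and none higher. Tuba4a, an alpha-tubulin, differed by -1.30 in cbx and -1.04 in saline on the log2 scale, and Map6, which makes microtubules cold-stable, by -0.65 in cbx and -0.62 in saline. Map1a, a microtubule-associated protein of mature neurons, differed by -1.15 in saline. The median of the list was -0.25 in cbx and -0.27 in saline.

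Genes of the mature axon membrane and of its spectrin skeleton were called lower for 11 of 15 in cbx and 5 of 15 in saline, and none higher, with list medians of -0.48 in cbx and -0.23 in saline. Cntnap1, which builds the junctions beside nodes of Ranvier, differed by -1.37 in cbx and -0.82 in saline, and Cntn1, its partner, by -0.75 in cbx and -0.63 in saline. Scn8a, the sodium channel of mature nodes and initial segments, differed by -0.76 in cbx and -0.49 in saline. Of 14 axonal transport motors 8 were called lower in cbx and 6 in saline, again none higher, with medians of -0.37 in cbx and -0.26 in saline. Kif5a, a kinesin that carries neurofilaments in mouse neurons, differed by -0.66 in cbx and -0.62 in saline. The summed CPM of the motors was lowest in cbx superficial replicate 1, at 4739, against 6778 to 7335 in saline superficial libraries.

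Growth cone genes were split, as the 5 growth members were. In cbx 8 of 24 tested were called higher in the superficial layers and 6 lower, and in saline 4 were higher and 6 lower, with medians of 0.12 in cbx and 0.00 in saline. Sox11, a transcription factor of young neurons, differed by 0.90 in cbx and 0.83 in saline, and Sox4, its relative, by 0.78 in cbx and 0.56 in saline. Chl1, a cell adhesion molecule, was lower in saline, at -0.56. Of the 7 relatives of Stmn2 and Dpysl3, none was called in cbx and 1, Dpysl2, was lower in saline, at -0.47 (list medians of -0.15 in cbx and -0.19 in saline).

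Among 13 genes that link or turn over filaments, 4 were higher and 3 lower in cbx, and 3 higher and 2 lower in saline. The higher ones included Vim (2.11 in cbx and 1.73 in saline), Gfap (5.50 in cbx and 6.08 in saline) and Nes (0.58 in cbx and 0.69 in saline), which encode intermediate filaments of glia, progenitors and, for Vim, fibroblasts. Nes is also on the list of immature cells below. Sncg, a synuclein of neurons, was lower, with differences of -2.39 in cbx and -1.35 in saline. The list medians were -0.06 in cbx and 0.03 in saline. Of 21 kinases and phosphatases that act on tau and neurofilaments, 2 were higher and 7 lower in cbx, and 1 higher and 5 lower in saline, with medians of -0.10 in cbx and -0.11 in saline. Cdk5r2, an activator of the tau and neurofilament kinase Cdk5, differed by -0.52 in cbx and -0.57 in saline.

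Between the treatments these lists moved in few places. In the superficial layers Tppp3 (0.38), a microtubule-bundling protein, and Vim (0.33) were called higher in cbx and Ttbk1 (-0.39), a tau kinase, lower. In the deep layers Cntnap1 (0.61) was higher and the kinase gene Dyrk1a (-0.31) lower in cbx. No gene of the 7 lists was called in the interaction, in edgeR.

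**Figure D5:**
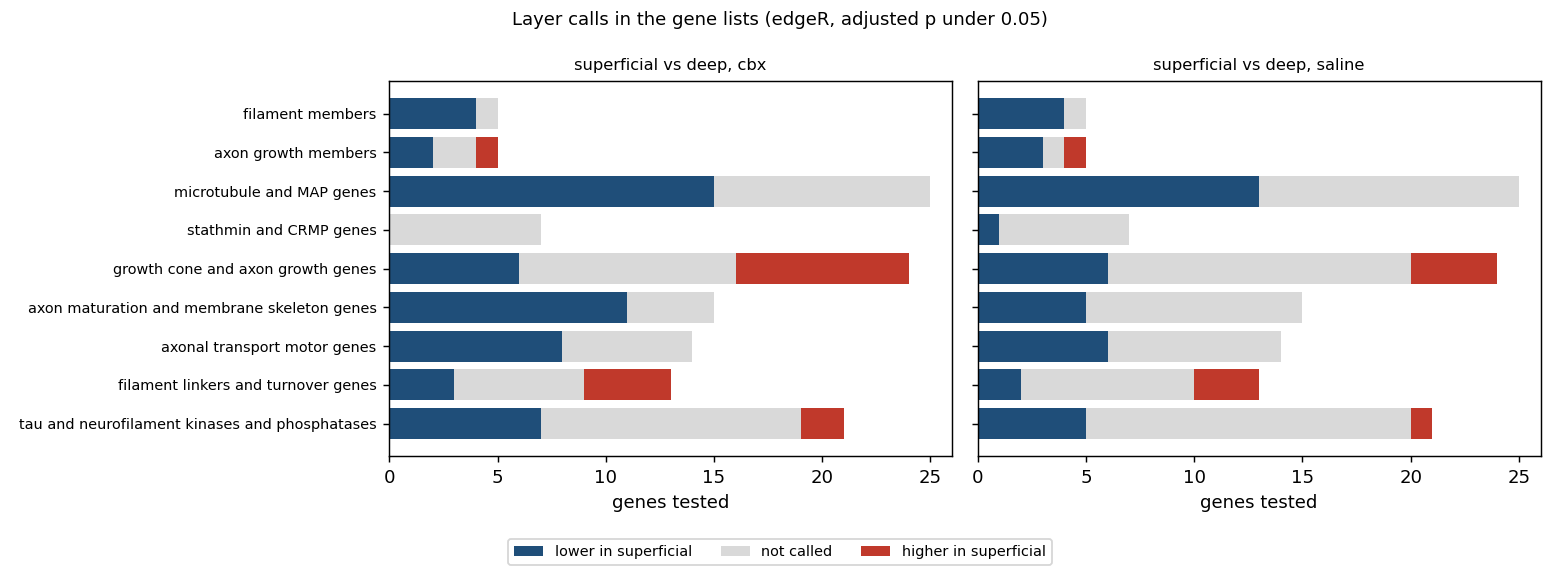
Number of genes of each list called lower (blue), not called (grey) or called higher (red) in superficial against deep layers, in cbx on the left and saline on the right (edgeR, adjusted p under 0.05). Microtubule, motor and axon maturation lists hold lower calls only, and growth cone genes are split.

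Markers of neurons changed less than the triplet. Of 10 pan-neuronal genes 1 was higher and 5 lower in the superficial layers in cbx, and 1 higher and 2 lower in saline, with a median of -0.13 in both. Their summed CPM was 3671 to 4388 in cbx superficial, 3868 to 4317 in saline superficial, 3875 to 4547 in cbx deep and 4192 to 4388 in saline deep libraries. Meningeal markers were called higher in the superficial layers for 10 of 10 genes in both treatments. Markers of immature and dividing cells, beside Dcx, were higher for 7 of 9 in cbx and 6 of 9 in saline, with none lower. They summed to 284 to 293 CPM in cbx superficial, 254 to 282 in saline superficial, 191 to 209 in cbx deep and 199.4 to 207 in saline deep libraries. Of 9 microglial markers 1 was higher and 3 lower in cbx, and 0 higher and 8 lower in saline. They summed to 304 to 326 CPM in cbx superficial, 225 to 252 in saline superficial, 336 to 372 in cbx deep and 368 to 399 in saline deep libraries. Of 10 oligodendrocyte markers 1 was higher and 5 lower in cbx, and 2 higher and 3 lower in saline, with sums of 715 to 872 CPM in cbx superficial, 678 to 981 in saline superficial, 977 to 1112 in cbx deep and 1009.6 to 1255 in saline deep libraries. Of 9 astrocyte markers 4 were higher and 2 lower in cbx, and 2 higher and 3 lower in saline, with sums of 2721 to 3240.1 CPM in cbx superficial, 2863 to 3526 in saline superficial, 1932 to 2226 in cbx deep and 2242 to 2742 in saline deep libraries. Of 6 red blood cell markers 5 were higher in cbx and 0 in saline, and none was lower. The part of these cells in the values of the 10 genes was not tested.

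Trigeminal sensory neurons and motor neurons, which are rich in neurofilament or peripherin, lie near the deep layers, and several of their markers were lower in the superficial libraries too. Piezo2, a touch channel, stood at 5.24 CPM in cbx superficial, 5.48 in saline superficial, 27.3 in cbx deep and 26.2 in saline deep libraries, and differed by -2.37 in cbx and -2.26 in saline between the layers. It is on the list of trigeminal sensory neurons of the midbrain, of which 1 gene was higher and 4 lower of 6 tested in cbx, and 1 higher and 2 lower in saline. Ntrk3 and Pou4f1 made up most of its summed level, with means of 185 and 42.4 CPM in cbx superficial and 218 and 112 CPM in cbx deep libraries. Summed, that list had 208 to 255 CPM in cbx superficial, 242 to 284 in saline superficial, 339 to 393 in cbx deep and 362 to 394 in saline deep libraries. Its genes Prrxl1, Tlx3, Runx3, Isl1 and Pvalb had means under 1 CPM in every group, and its gene Pou4f1 is also a marker of dorsal midbrain neurons.

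The 10 markers of cholinergic motor neurons summed to 1.91 to 2.23 CPM in cbx superficial, 1.83 to 2.71 in saline superficial, 6.57 to 8.19 in cbx deep and 5.32 to 6.17 in saline deep libraries. Of 3 that could be tested, 3 were lower in the superficial layers in cbx and 2 in saline. Chat, which makes acetylcholine, was at 0.106 CPM in cbx superficial, 0.0435 in saline superficial, 0.171 in cbx deep and 0.0694 in saline deep libraries, so this defining marker was near 0. The part of such neurons in the filament values was not tested.

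The genes with a pattern most like that of 3 members over the 14 libraries were looked up. Likeness was the root mean square difference of log2(CPM + 1), each gene centred on its own mean, over 13690 protein-coding genes with a mean of at least 1 CPM. For Nefh the closest were Nts (0.151), Rasal1 (0.154), Casz1 (0.156), Syt2 (0.162) and Tfap2b (0.179), where the median over all genes was 0.916. For Gap43 they were Tuba1b (0.0516), Tcerg1l (0.0589), Zcchc12 (0.0692), Nap1l5 (0.0707) and Fam131c (0.0737), with a median of 0.407. For Prph they were Begain (0.130), Coro2a (0.137), Carmil3 (0.138), Grin2d (0.148) and Plxdc1 (0.150), with a median of 0.422. The SD of the member itself over the 14 libraries was 0.920 for Nefh, 0.374 for Gap43 and 0.392 for Prph. A gene at a constant level lies about that far away, so the medians are a weak yardstick, and the distance depends on the size of the change as well as its pattern. On this scale the differences of genes with few reads are compressed, so a small distance does not mean an equal fold. In saline the layer difference was -2.66 for Nts, against -1.57 for Nefh, and it was -0.48 for Begain and -0.65 for Plxdc1, against -1.10 for Prph. Within the set, Nefh was closer to Nefl (0.287) and Nefm (0.310) than to Prph (0.579) or Ina (0.914), and Ina was closest to Mapt (0.153) and Stmn2 (0.159).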

How the data were processed

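RNA of 14 tissue pools was sequenced after poly-A selection in paired reads of 150 bases, per the labels' protocols. The values deposited by the authors are raw counts of reads per gene, 1 table per library. The submitters' processing notes name STAR, featureCounts (Subread 2.0.1), SAMtools 1.14 and FastQC 0.11.9, and both GRCm39 and mm10 as builds. Their annotation and strand setting are not known here. Symbols matched 52083 of 55359 IDs, with 98.7% of counts. Lengths came from GENCODE M21.

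Counts were fitted with edgeR 4.0.16 (R 4.3.3): filterByExpr by group, TMM scaling, a robust quasi-likelihood fit of 4 group means to 14 libraries with 10 residual degrees of freedom, and Benjamini-Hochberg adjustment over 20330 genes with a threshold of 0.05. This main fit did not pair the layers of a pool. SE and intervals are of the fitted log2 differences. Alternatives used DESeq2 1.42.0 and limma 3.58.1, other filters and scalings, the compared groups alone, libraries left out, the replicate number as a block, and removal of each library's trend with length and GC. Balance, ratios and likeness are descriptions without a test. All 10 genes are described; of each other list, up to 4 called genes per comparison with the smallest p were eligible to be named. The members and lists were chosen with earlier results of these data known. The test was checked on simulated counts.

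The titles give the replicate numbers. Superficial and deep libraries with one number deviated from their group means with correlations of 0.182 to 0.394 (7 of 7 pairs). Superficial and deep libraries of one treatment with different numbers gave -0.373 to 0.173 (18 pairs), and the remaining pairs reached 0.305. The numbers were taken to pair the layers, though no label says that a number marks the same brains. Cbx and saline libraries with one number gave -0.276 to -0.0167 (6 pairs), so across treatments a number is only a name. No replicates agreed within sampling noise: over 18 pairs, chi-square per gene was 7.16 to 47.5.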

Additional observations from a re-analysis of the deposited data

Results flagged for a closer look

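The change of the balance with cbx had opposite directions in the layers: the cbx libraries were all below the saline libraries in the superficial layers and all above them in the deep layers. The difference between both changes was -0.319 on the log2 scale. This difference was not tested. The superficial change was -0.08 without cbx superficial replicate 1, and turned to 0.03 with summed CPM in place of mean logs, so the opposite direction holds for the score as defined. Of 38 groups of 4 libraries examined for a value far from the others, 2 held one beyond the critical value for its group size, and chance gives about 1 in 20 groups. The ratio of Nefh to Dcx in CPM per kilobase was 0.0673 in cbx superficial replicate 1, where the other cbx superficial libraries had 0.0850 to 0.0882. That is also the library in which long genes were low. The ratio of Nefl to Gap43 per kilobase was 0.123 in cbx deep replicate 4, where the other cbx deep libraries had 0.138 to 0.141.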

How the results depend on the processing

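Of 50 results (10 genes in 5 comparisons), 15 were called, and 11 of these stayed called under every alternative; of the 35 not called, 28 were never called, and no called difference changed sign. Without the low-count filter Nefm was called in the superficial cbx comparison (1 member) and in the interaction (1). With only the compared groups 2 members were called in the deep cbx comparison. Without the pools of one sex, which leaves 10 of the 14 libraries, 5 were called between the layers in saline. That setting also has fewer libraries in each group, and the part of sex in its counts was not tested. With 1 library left out, the members called ran from 0 to 1 in the deep cbx comparison, from 5 to 9 between the layers in saline and from 6 to 9 in cbx, and stayed at 0 in the superficial cbx comparison and the interaction. The balance differences ran from -0.162 to -0.0819 for cbx in the superficial layers, 0.143 to 0.229 for cbx in the deep layers, -0.984 to -0.903 between layers in saline and -1.29 to -1.21 in cbx. With summed CPM the superficial cbx difference reversed to 0.0272, and the layer differences were -0.548 in saline and -0.709 in cbx. The layer difference in saline was -1.04 with a pseudocount of 0.1 CPM and -1.05 without Prph, and in cbx it was -1.39 and -1.41. The causes were not tested. With the replicate block, 9 members were called between the layers in saline, 9 in cbx and 0 in the interaction. In these tests the block paired the superficial and deep libraries of a pool. In the 2 comparisons of cbx with saline the block was the number alone, across all groups, and 0 members were called. Across treatments a number is only a name, so the block calls for cbx, also those over all genes below, rest on no known pairing. Over all genes, the calls for cbx in the superficial layers were 880, against 1459 without the filter, 1504 with DESeq2, 142 with only the compared groups, 480 with the block, 91 without the pools of one sex and 140 to 907 with 1 library left out. In the deep layers they were 373, against 566 without the filter, 791 with DESeq2, 611 with only the compared groups, 191 with the block, 14 without the pools of one sex, 806 with the length and GC trend removed and 42 to 737 with 1 library left out. Between the layers in saline they were 3739, against 2133 without the pools of one sex. The interaction had 0, against 256 without the filter, 60 with DESeq2, 61 with the block and up to 14 with 1 library left out. At this depth Prph, with 18 to 87 counts a library, has the widest interval of the 10 genes.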
